A study of Mus musculus with 158 samples.

Results

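Ccdc152, B430119L08Rik, Plbd2 and 4930402D18Rik are 4 of the 53715 genes in the RNA tables of a study of F1 hybrid mice. They were chosen by their expected counts and TPM (a share of all transcripts, scaled by length) in these same tables, which were high in liver, and because each lies opposite a gene known as a liver transcript. The high liver values of the 4 genes are therefore a description here and were not tested. The mice were first-generation offspring of C57BL/6J mothers, with no treatment named, and were killed at 8 weeks of age. The hybrid is named after the father's strain, which was SPRET/EiJ in B6xSPRET, PWK/PhJ in B6xPWK, CAST/EiJ in B6xCAST, C3H/HeJ in B6xC3H and a laboratory strain in B6x129. Solid tissues were usually pooled from several mice. Total RNA was sequenced in 17 libraries: 4 of whole liver, 4 of whole kidney, 4 of whole lung and 5 of bone marrow B cells, which had been enriched by removal of cells carrying CD43 or CD11b. Liver, kidney and lung had 1 library each of B6xC3H and B6xPWK and 2 of B6xSPRET, and B cells had 1 of B6xC3H, 1 labelled B6xCAST, 2 of B6xPWK and 1 of B6xSPRET. DNA accessibility came from DNase-seq of the same 4 tissues in all 5 hybrids, as 20 pooled sets of hotspots (stretches in which DNase I cut more often than in their surroundings, at a false discovery rate of 5%).

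Hepatocytes make most of the proteins of blood plasma, among them the selenium carrier selenoprotein P and the protease inhibitors of the alpha-1-antitrypsin family, and they break down amino acids for the synthesis of glucose. The genes opposite the 4 listed genes belong to this work. Selenop encodes selenoprotein P, Serpina1c is one of several near-identical mouse genes for alpha-1-antitrypsin, Sds encodes serine dehydratase, which turns serine into pyruvate, and A1bg encodes the plasma protein alpha-1-B glycoprotein. Of the listed genes, Ccdc152 encodes a coiled-coil protein and Plbd2 a lysosomal protein related to phospholipase B. B430119L08Rik and 4930402D18Rik are annotated as antisense RNAs without a coding region. Within exonic bases that genes on opposite strands share, RNA-seq reads of the genes can be told apart only by strand. The library kit named in the labels marks strand, and the strand setting used for counting is not given in the sources used here. Whether the counts listed for a gene are reads of the gene opposite it was not tested, so the values that follow are those listed under each name and are not read as levels of its own transcript. In the same tables the antisense gene Tsix, which was looked up with its values known, was listed with more counts than Xist, the RNA of the inactive X chromosome on the other strand, in 17 of 17 libraries, with 311 to 975 counts against 9 to 39 in liver.

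The 4 pairs overlapped in 2 ways (coordinates are of mm10, gene models of GENCODE vM21 for the transcripts that the tables list). Ccdc152 (ENSMUSG00000091119.2, chr15:3280070-3303526, minus strand, protein coding) and Selenop (ENSMUSG00000064373.12, chr15:3270767-3280508, plus strand) ran toward each other and shared 439 bp at their 3′ ends, outside the coding sequence of either gene. Plbd2 (ENSMUSG00000029598.12, chr5:120483282-120503625, minus strand, protein coding) and Sds (ENSMUSG00000029597.14, chr5:120476526-120483932, plus strand) also met tail to tail, where 360 bp at the 3′ end of Sds, 203 bp of them coding in Sds, lay in exonic bases of Plbd2 outside its coding sequence. B430119L08Rik (ENSMUSG00000086432.1, chr12:103895897-103898784, plus strand) lay wholly inside Serpina1c (ENSMUSG00000079015.2, chr12:103894926-103904887, minus strand) and was complementary to 429 bp of its exons, all of them coding in Serpina1c. 4930402D18Rik (ENSMUSG00000115231.1, chr15:60912974-60955320, plus strand) spanned A1bg (ENSMUSG00000022347.8, listed transcript chr15:60917587-60921266, minus strand) and was complementary to 356 bp of coding exons. The overlap made up 32.3% of the exonic bases of Ccdc152, 21.5% of B430119L08Rik, 8.56% of Plbd2 and 23.0% of 4930402D18Rik. A pseudogene, Gm48951, also lay opposite 4930402D18Rik, shared none of its exonic bases and had no count in any liver library.

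The 30 bases in the middle of the longest shared exon stretch are printed below on both strands for each pair, because a read of these bases belongs to one gene or to the other by its strand alone. Capitals in the B430119L08Rik and Serpina1c lines mark bases that differ in at least 1 of the copies Serpina1a, Serpina1b, Serpina1d and Serpina1e. Sequences were read from GRCm38.p6, the same build as mm10.
Ccdc152, minus strand: agatagtccctcagagctcagcagaacagt
Selenop, plus strand: actgttctgctgagctctgagggactatct
B430119L08Rik, plus strand: cccagctggaCagCGtgctgcaatgGtgca
Serpina1c, minus strand: tgcaCcattgcagcaCGctGtccagctggg
Plbd2, minus strand: gcccgttcaggcccagctgcaccttgagtg
Sds, plus strand: cactcaaggtgcagctgggcctgaacgggc
4930402D18Rik, plus strand: ggtcccagacgaattcagcatttgcaccac
A1bg, minus strand: gtggtgcaaatgctgaattcgtctgggacc
The stretches lie at chr15:3280274-3280303, chr12:103897171-103897200, chr5:120483738-120483767 and chr15:60919007-60919036, in the order of the pairs. Over the whole 251 bp of its longest shared stretch, Serpina1c was 98.8% identical to Serpina1a, 94.0% to Serpina1b, 94.4% to Serpina1d and 95.6% to Serpina1e. Counts of Serpina1c are fractional because RSEM divides reads between such copies, and they are uncertain for that reason.

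Depth and the tissue labels were checked first. Expected counts (RSEM's estimate of reads per gene) summed to 283725 to 322257 per liver library, 437171 to 551273 per kidney library, 380115 to 387504 per lung library and 285191 to 809337 per B cell library. Levels are given as counts scaled to the library total (CPM). All 8 liver markers were found in liver and summed to 687 to 3930 CPM there, against 0 to 15.7 CPM elsewhere. Of 10 kidney, 8 lung, 9 B cell and 7 other blood cell markers, all 10, all 8, 7 and 5 had a count in their own tissue (blood markers in B cells), and 3, 1, 1 and 4 had any count in liver, where these lists summed to at most 30.03, 6.67, 3.52 and 17.6 CPM. B cell markers at 0 in the B cell libraries numbered 2. Markers of the own tissue were present at low counts, and Alb, the albumin gene, had 767, 389, 250 and 95 counts in the B6xC3H, the B6xPWK and the first and second B6xSPRET liver library. That second library had the fewest genes with a count, 6642 against 8155 to 9397 in the other liver libraries, and values without it are given where they change a result. Samples are separate by their labels, and p-values measure the spread between these samples.

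Ccdc152 was listed with more counts than Selenop in every one of the 17 libraries. In liver, Ccdc152 had 27514 counts in B6xC3H, 18211 in B6xPWK and 27047 and 47637 in the 2 B6xSPRET libraries, which made it the first or second gene of each liver table with 5.76% to 16.8% of all counts. In kidney its counts were 5342 in B6xC3H, 4053 in B6xPWK and 9304 and 9850 in B6xSPRET. In lung they were 3364 in B6xC3H, 2126 in B6xPWK and 5149 and 3040 in B6xSPRET. In B cells they were 76 in B6xC3H, 449 in the B6xCAST library, 386 and 387 in B6xPWK and 145 in B6xSPRET. Liver, kidney and B cells did not overlap in CPM, while kidney and lung did. The means were 100283 ± 47315 CPM in liver (SD, n = 4), 14991 ± 7221 in kidney (n = 4), 8907 ± 3294 in lung (n = 4) and 655 ± 363 in B cells (n = 5). Pooled over libraries, the level in liver was 6.80-fold that in kidney, 11.1-fold that in lung and 170-fold that in B cells.

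Selenop, which delivers selenium from the liver to other organs, had far lower counts in every tissue. It had 68, 26, 34 and 34 counts in the B6xC3H, B6xPWK and the 2 B6xSPRET liver libraries. Kidney gave 11, 5, 8 and 9 counts in the same order of hybrids, and lung 3, 3, 2 and 5. B cells gave 1 in B6xC3H, 0 in B6xCAST, 1 and 3 in B6xPWK and 0 in B6xSPRET. The summed counts of Ccdc152 were 743 times those of Selenop in liver, 865 times in the kidney, 1052 times in the lung and 289 times in the B cell libraries. In liver the ratio ranged from 405 in B6xC3H to 1401 in the second B6xSPRET library. The tables list 2 transcripts of Ccdc152, of 1327 and 798 bases, and the mean transcript length that RSEM gave was 1327 bases in all 17 libraries, the length of the transcript that ends inside Selenop. The shorter one shares no base with Selenop.

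B430119L08Rik had high counts in liver and few elsewhere. Its liver counts were 7855 in B6xC3H, 9482 in B6xPWK and 12105 and 5353 in B6xSPRET, and it ranked between the 2nd and the 11th gene of each liver table, with 1.89% to 4.04% of all counts. Kidney gave 9, 11, 31 and 29 counts in B6xC3H, B6xPWK and the 2 B6xSPRET libraries, and lung gave 0, 1, 5 and 10. In B cells, 3 libraries had none, the B6xCAST library had 2 and 1 of the B6xPWK libraries had 1. Every liver library stood above all 13 others. The means were 28407 ± 9191 CPM in liver (SD, n = 4), 42.7 ± 27.9 in kidney (n = 4) and 10.4 ± 11.8 in lung (n = 4), and the pooled liver level was 701-fold that in kidney and 2732-fold that in lung. Serpina1c, on the other strand, had 45.4, 27.7, 19.7 and 8.90 counts in the same liver libraries, 0.18 in 1 lung library and none elsewhere. In liver B430119L08Rik had 173 to 613 times the counts of Serpina1c. Serpina1a, Serpina1b, Serpina1d and Serpina1e had at most 47.3, 60.7, 31.6 and 17.8 counts in any liver library, with the lowest value of each in the second B6xSPRET library.

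Plbd2 was seen in liver and scarcely elsewhere. Its liver counts were 342 in B6xC3H, 749 in B6xPWK and 387 and 424 in B6xSPRET, a mean of 1554 ± 572 CPM (SD, n = 4) and a rank of 66 to 118 among genes. The 4 kidney libraries held 1 count in all, the 4 lung libraries 3 and the 5 B cell libraries none. Set against 3 counts over each group, the pooled liver level was 1023-fold that in kidney and at least 1292-fold that in B cells. Against the 3 counts that lung held, it was 796-fold. Sds had 2, 3, 1 and 0 counts in the liver libraries in the same order, 3 in kidney in all, 5 in lung and 18 in B cells, so its highest summed count was in B cells. Plbd2 exceeded Sds in 4 of 4 liver libraries, and Sds exceeded Plbd2 in 5 of 5 B cell libraries. Of other lysosomal genes, Ctsa, which encodes protective protein cathepsin A, had a mean of 39.8 counts per liver library. It had 19.8 per kidney library, 786.5 per lung library and 84.4 per B cell library. Ctsz, which encodes cathepsin Z, had 5.75, 3.50, 4.00 and 13.6 in the same order. Both were named after their values were seen, and Ctsb, Lamp1 and Ctsl had higher liver means than Ctsz. Ctsa shares exonic bases with Pltp on the other strand, and Ctsz with Nelfcd. Whether the counts of Ctsa and Ctsz are reads of those genes was not tested.

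4930402D18Rik varied most between liver libraries. It had 443 counts in B6xC3H, 86 in B6xPWK and 1461 and 70 in the 2 B6xSPRET libraries, between 247 and 4875 CPM. The libraries of 1 hybrid lay at both ends of the range. Kidney held 3 counts in all, B cells 1 and lung none. The pooled liver level was 1107-fold that in kidney. Set against 3 counts, it was 1399-fold that in B cells and at least 863-fold that in lung. A1bg had 3, 1, 1 and 0 counts in the liver libraries, 3 over all kidney libraries, 4 over all lung libraries and none in B cells. 4930402D18Rik exceeded A1bg in 4 of 4 liver libraries and A1bg exceeded 4930402D18Rik in 3 of 4 lung libraries, at 2 counts or fewer. Levels of the genes can be set side by side only per length. In TPM, which divides by length, the liver means were 80488 ± 34270 for Ccdc152, 14824 ± 5652 for B430119L08Rik, 1195 ± 1592 for 4930402D18Rik and 363 ± 148 for Plbd2 (SD, n = 4 each). The intervals of 1 SD of the last 2 overlapped.

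**Figure D1:**
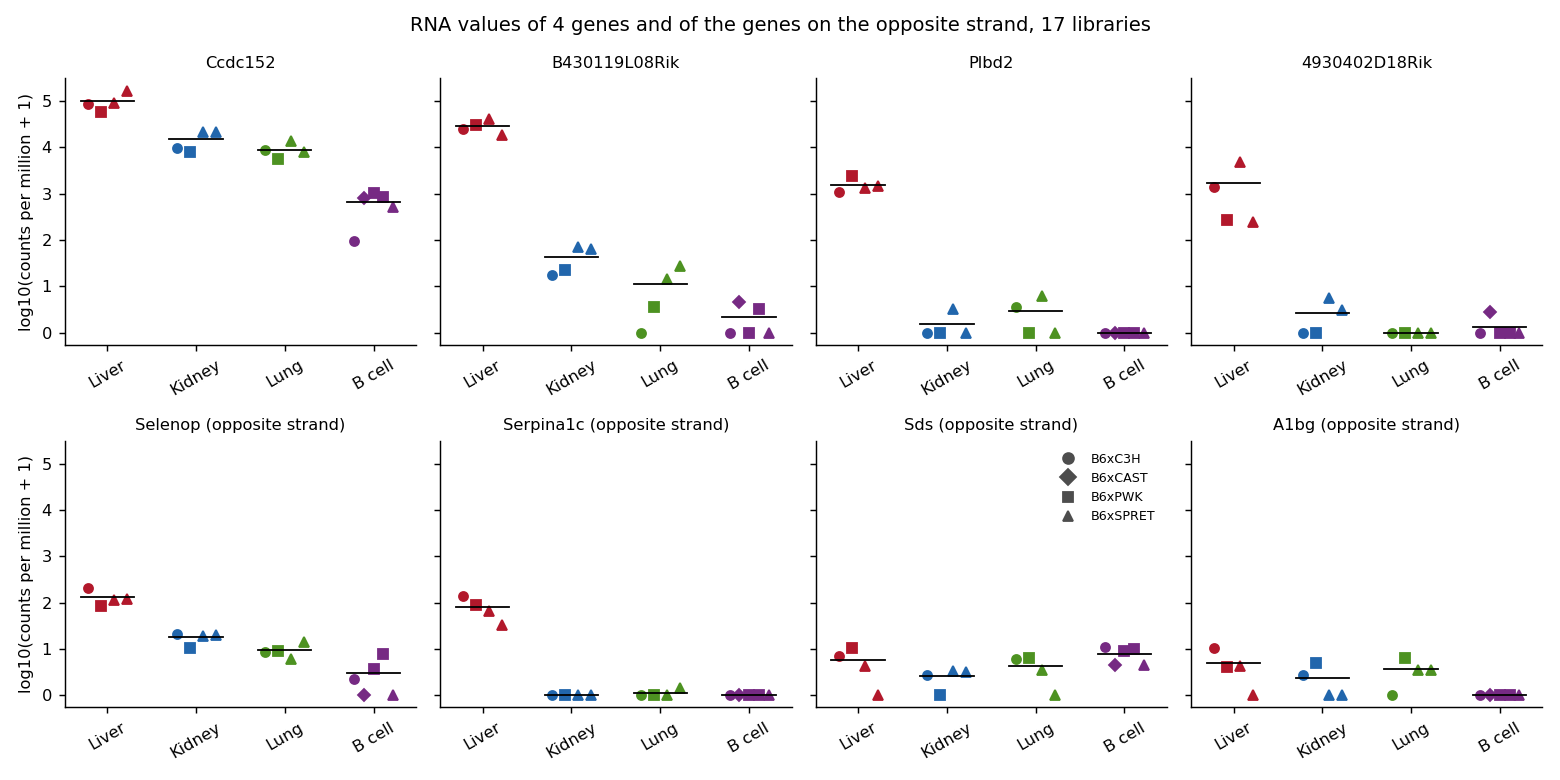
CPM plus 1 on a log10 scale (vertical axis) for Ccdc152, B430119L08Rik, Plbd2 and 4930402D18Rik (upper row) and the gene on the opposite strand of each (lower row) in the 17 RNA libraries by tissue, with 1 symbol per library, its shape giving the hybrid, and a line at the mean of each tissue. The 4 liver libraries lie above the other 13 for each gene in the upper row, and Ccdc152 is between 93.9 and 167899 CPM in all 17.

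**Figure D2:**
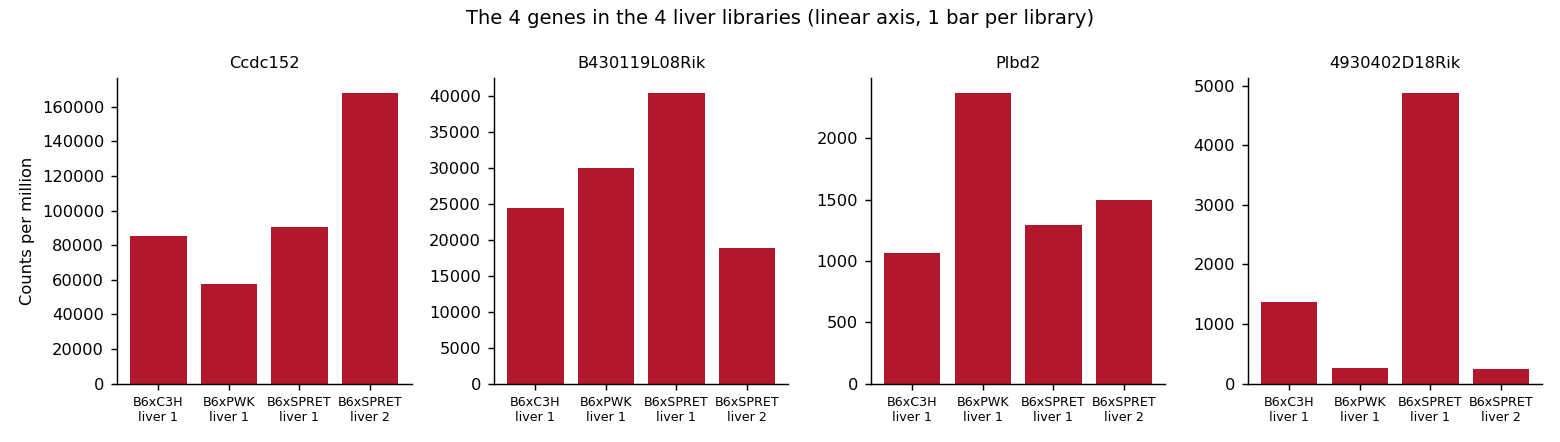
CPM (linear axis from 0) of the 4 genes in the 4 liver libraries, 1 bar per library. The second B6xSPRET library is the highest for Ccdc152, at 167899 CPM, and the lowest for B430119L08Rik and 4930402D18Rik, at 18867 and 247 CPM.

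Liver was set against the mean of the other 3 tissues over all 4479 genes that passed the count filter (edgeR's quasi-likelihood test with Benjamini-Hochberg adjustment), of which 975, or 21.8%, were called higher in liver. All 4 listed genes were among these, which follows from how they were chosen. With limma on log2(TPM + 1), 368 of 3526 called genes were higher in liver, or 8.22% of those tested, against 975 of 1938 by edgeR. The median difference over all genes tested was -0.35 on the log2 scale by edgeR and -1.53 by limma. The opposite genes get no test here, because Selenop and Serpina1c passed the filter through their liver counts alone, as did B430119L08Rik, Plbd2 and 4930402D18Rik, while Sds and A1bg did not pass it and Ccdc152 passed also without the liver libraries. Pooled over libraries, Selenop in liver was at 7.92 times its level in kidney, 15.7 times that in lung and 66.0 times that in B cells, which held 5 counts in all. Serpina1c, set against 3 counts over a tissue, was at least 54.7-fold higher than in kidney, 42.6-fold than in lung and 69.1-fold than in B cells. The fit scaled library totals by TMM factors of 0.371 to 0.674 for liver, 0.722 to 0.912 for kidney, 1.41 to 1.88 for lung and 1.21 to 1.60 for B cells, so that its differences are larger for liver and smaller for lung than those of CPM.

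Outside liver, 2 of the 4 listed genes had enough counts for a comparison, and by mean CPM the 3 tissues stood in the order kidney, lung, B cells for both. Between kidney and lung, 19.8% of genes were called higher in kidney. B430119L08Rik passed the filter through its liver counts alone, so its differences between the other tissues are given without a test. It had 9 to 31 counts in kidney and 0 to 10 in lung, and the fitted difference was 2.79 ± 0.71 on the log2 scale (SE). Ccdc152 was higher in kidney by 1.56 ± 0.62 (SE, edgeR adjusted p = 0.0476) and was no longer called with size factors in place of TMM scaling (1.31, adjusted p = 0.0898), with limma on TPM (0.62, adjusted p = 0.453) or when any of 12 of the 17 libraries was left out (adjusted p between 0.0516 and 0.193). The 5 whose removal kept the call were the B6xPWK kidney, first B6xSPRET lung, B6xC3H B cell, second B6xPWK B cell and second B6xSPRET liver library. Size factors moved the median of all genes in this contrast from -0.09 to -0.36, and the genes called higher in kidney from 889 of 1859 to 701 of 1961.

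Against B cells, Ccdc152 was higher in both organs, and the counts of B430119L08Rik were higher in kidney. Ccdc152 was higher in kidney than in B cells by 5.32 ± 0.67 on the log2 scale (SE, edgeR adjusted p = 2.67e-07), where 32.6% of all genes tested were higher in kidney. The fitted difference of B430119L08Rik was 5.47 ± 0.83 (SE), again without a test. Between lung and B cells, where 29.4% were higher in lung, Ccdc152 differed by 3.76 ± 0.62 (SE, edgeR adjusted p = 1.60e-05). B430119L08Rik differed by 2.68 ± 0.97 (SE, no test), from 16 counts in lung and 3 in B cells. Its counts of 0 to 10 per lung library and 0 to 2 per B cell library overlapped. Its difference was 1.75 without the second B6xSPRET lung library and 2.28 without the B6xC3H B cell library. Plbd2 and 4930402D18Rik were at or below 3 counts in each of these tissues in all, and no fold is given, although the fit called Plbd2 higher in lung than in B cells (edgeR adjusted p = 0.0479) from 3 counts against 0. Selenop had 33 counts over the kidney libraries, 13 over the lung and 5 over the B cell libraries, and is not tested here for the reason given above. In whole tissue, fewer cells of a type and less RNA per cell cannot be told apart.

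Between hybrids, none of the 4 genes was called in an additive fit of tissue and hybrid over 16 libraries, without the B cell library labelled B6xCAST (edgeR), and none by DESeq2 or limma. At an unadjusted p under 0.05, edgeR held 1 of the 4 in each comparison, DESeq2 held 1, 1 and 0, and limma 0, 2 and 0, in the order in which the comparisons are named next. The shares of all genes called in either direction were 2.23% for B6xSPRET against B6xPWK, 2.23% for B6xSPRET against B6xC3H and 1.17% for B6xPWK against B6xC3H. For 4930402D18Rik, and for Plbd2, these comparisons rest on the 4 liver libraries, with 1 each of B6xC3H and B6xPWK. The p-values of these 2 genes therefore do not measure the spread between livers of B6xC3H or of B6xPWK. 4930402D18Rik was higher in B6xSPRET than in B6xPWK by 3.14 ± 0.91 on the log2 scale (SE, edgeR adjusted p = 0.0799, unadjusted p = 0.00251). Without the second B6xSPRET liver library, which held 70 counts, the difference was 4.00, and without the first, which held 1461 counts, it was 0.77. Each of these fits has 1 liver library per hybrid. Without the B6xC3H B cell library the difference was 3.14 and called (edgeR adjusted p = 0.0395), and by DESeq2 on all 16 libraries it was 1.88 (adjusted p = 0.730). B6xSPRET and B6xC3H differed by 0.61 ± 0.76 (SE, edgeR adjusted p = 0.809). The difference of B6xPWK from B6xC3H, from 1 liver library of each, was -2.53, and -2.56 without the second B6xSPRET liver library. B430119L08Rik was 1.13 ± 0.56 above B6xPWK and 1.24 ± 0.56 above B6xC3H in B6xSPRET (SE, adjusted p = 0.382 and 0.324). Ccdc152 differed by 0.69 ± 0.58 and 0.89 ± 0.52 in the same comparisons (SE, adjusted p = 0.654 and 0.478), and Plbd2 by -0.12 ± 0.55 and 0.35 ± 0.58 (SE, adjusted p = 0.952 and 0.877). Between B6xPWK and B6xC3H these 3 genes differed by 0.11 to 0.47 (adjusted p up to 0.973).

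Other genes with liver-like patterns were found by the correlation of log2(TPM + 1) over the 17 libraries, among 8808 genes with a mean of at least 1 TPM in liver. These libraries share tissues and depth, and the values are a description. The 3 nearest to Ccdc152 were mt-Cytb, the mitochondrial cytochrome b gene (r = 0.956), Ppfia2 (r = 0.943) and the antisense gene Gm48342 (r = 0.940). Ppfia2 shares exonic bases with Acss3 and C230021G24Rik on the other strand, and Gm48342 with Hmgcs1, an enzyme of cholesterol synthesis. The nearest to B430119L08Rik were Gm30097, Tomm40l and C1rl (r = 0.975, 0.975 and 0.973). Gm30097 lies opposite Fgg, which encodes the gamma chain of fibrinogen, and Tomm40l opposite Nr1i3, which encodes the nuclear receptor CAR. Plbd2 was nearest to Fbxl21, Gm15690 and Hamp, the hepcidin gene (r = 0.993, 0.993 and 0.992). Gm15690 (chr5:120479842-120480903, minus strand) is an antisense gene inside Sds, with 4 to 11 counts per liver library and none elsewhere. Hamp had 2 counts in each liver library and none elsewhere. 4930402D18Rik was nearest to Ly6e-ps1, Cyp2c67 and Mbl2 (r = 0.986, 0.985 and 0.984), none of which exceeded 12 counts in a liver library and none of which shares exonic bases with an opposite gene.

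Lists of related genes give the setting. Of 36 hepatocyte transcripts, 16 passed the filter, 12 of them through the liver libraries alone, and 14 were called higher in liver, where 21.8% of all genes were. The 12 had to differ, so this count and the median difference of 8.66 on the log2 scale (-0.35 over all genes tested) support nothing about the list. Of the 4 that passed also without liver, Apoe and Apob were called higher in liver, by 7.27 and 5.57 (edgeR adjusted p = 4.43e-14 and 5.92e-10). Serpinc1 was called lower and Tdo2 was not called. Mean liver counts of the 36 lay between 3.25 and 464, with Apoe, Alb, Trf and C3 at 464, 375, 122 and 120, while Ccdc152 had a mean of 30102 in the same tables. Just 2 of the 36, Fgg and Serpinc1, share exonic bases with an opposite gene in these models, and in both cases the opposite gene had the higher count in 4 of 4 liver libraries. The same was so for 27.9% of the 5858 genes of the tables that share exonic bases with an opposite gene and have a liver count in either, and for 36.5% of 3605 protein coding ones, while the opposite gene was lower in 4 of 4 for 24.2% and 17.9%. Fgg had a mean of 25.0 counts in liver against 149 for Gm30097. Serpinc1, the antithrombin gene, had 19.0 against 402 for Zbtb37, and its difference in liver was -1.67 ± 0.25 on the log2 scale (SE, edgeR adjusted p = 9.19e-06), with a mean of 151 counts in kidney, 199 in lung and 270 in the B cell libraries.

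Of 19 genes of selenium handling, 4 passed the filter, 1 of them, Selenop, through liver counts alone. Of the other 3, Gpx3, a plasma glutathione peroxidase, was lower (-6.35 ± 1.44, SE, edgeR adjusted p = 0.00130), and 2 were not called. In liver the opposite gene was higher in 4 of 4 libraries for each of the 4 members that have one, of which 1 is Selenop with Ccdc152. For this and the next 2 lists, the share over all such protein coding genes was 36.5%. Sephs2, the selenophosphate synthetase gene, had a mean of 4.75 counts against 4912 for Gm44729. Of 25 genes of amino acid catabolism, 2 passed the filter, Ass1, of the urea cycle, through liver counts alone, and Shmt1, which was not called. In 4 of the 5 with an opposite gene, that gene was the higher one in 4 of 4 liver libraries, of which 1 is Sds with Plbd2. Bhmt, which remethylates homocysteine, had a mean of 19.5 counts against 166.5 for Gm15622. Of 21 lysosomal genes, 6 passed, 4 were called higher in liver, where 21.8% of all genes were, and 2 were not called. Plbd2, chosen for its liver values, is 1 of the 4, and Ctsb, Ctsz and Lamp1 are the others. Ctsb differed by 1.74 ± 0.28 on the log2 scale (SE, edgeR adjusted p = 1.99e-05) and Ctsz by 1.60 ± 0.52 (SE, edgeR adjusted p = 0.0162). Lamp1 was called higher against the mean of the others (1.60 ± 0.38, SE, edgeR adjusted p = 0.00147) at a mean of 8.75 counts in liver against 40.0 for kidney, 26.5 for lung and 0.60 for B cells. Among the 8 with an opposite gene, the opposite gene was higher in 4 of 4 liver libraries for 4 and higher in none of the 4 for 3, Plbd2 being one of these. The median differences of the 3 lists were 0.37, 2.79 and 1.60 on the log2 scale, each over the genes that passed the filter (-0.35 over all genes tested). Each list held 1 gene that passed through liver counts alone, Selenop, Ass1 and Plbd2, so these medians support nothing about the lists. The 2.79 rests on 2 genes, Ass1 at 6.10 and Shmt1 at -0.52.

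DNase hotspots have no strand, and their values were not used in the choice of genes. The opposite genes were known as liver transcripts when the pairs were chosen, so that open starts in liver were likely beforehand. The p-values at these starts are therefore a description and not independent support for the choice. Cover was measured as base pairs in hotspots within 1 kb of each gene start, the outermost 5′ end of the listed transcripts, and between the ends of each gene. Liver sets held 211762 to 295565 hotspots and covered 78.4 to 128.8 Mb, and the other 15 sets held 78387 to 281978 and covered 28.95 to 97.03 Mb. These totals move with the comparison of liver against the rest, and their part in the results was not tested. All tests were exact two-sided permutation tests with the liver label exchanged within each hybrid (smallest possible p = 0.000977), adjusted over 35806 gene starts or 34591 gene bodies with a hotspot in any set.

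The starts of the opposite genes were open in liver. Serpina1c had 1644, 1643, 1382, 1202 and 1424 bp of the 2 kb around its start in hotspots in the B6x129, B6xC3H, B6xCAST, B6xPWK and B6xSPRET liver sets, Sds had 1032, 986, 934, 1396 and 707 bp, and A1bg had 1241, 1315, 1079, 1210 and 650 bp. None of the other 15 sets had a hotspot within 1 kb of any of these 3 starts. For each of the 3 the adjusted p was 0.0120 (exact permutation test, p = 0.000977), and 11.8% of all starts tested were called higher in liver by this test. All 5 liver sets exceeded all 15 others at 6.32% of starts. The hotspots over these starts were at the cap of 100 for -log10 of the false discovery rate in 5 of 5 liver sets at Serpina1c, 2 of 5 at A1bg and 1 of 5 at Sds, and at least 26.1 in all. The Selenop start was open in all 20 sets, with 1422 to 1972 bp in liver and 882 to 1808 bp elsewhere, and was not called (difference of means 336 bp, adjusted p = 0.122, exact permutation test). Within 2 kb of the start it was called, at a mean of 2724 bp in liver and 1532 bp in the other sets (adjusted p = 0.0307, exact permutation test).

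The bases just before these 4 starts are printed because hotspots of all 5 liver sets cover all 150 of them. In the other 15 sets they are likewise covered at Selenop and not at all at Serpina1c, Sds and A1bg.
Selenop, chr15:3270617-3270766, plus strand: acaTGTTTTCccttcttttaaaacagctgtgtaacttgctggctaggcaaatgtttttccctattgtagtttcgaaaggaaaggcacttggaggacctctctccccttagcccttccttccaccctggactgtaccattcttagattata
Serpina1c, chr12:103904888-103905037, minus strand: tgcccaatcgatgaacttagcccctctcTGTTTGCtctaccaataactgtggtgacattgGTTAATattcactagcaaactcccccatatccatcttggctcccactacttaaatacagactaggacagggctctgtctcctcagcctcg
Sds, chr5:120476376-120476525, plus strand: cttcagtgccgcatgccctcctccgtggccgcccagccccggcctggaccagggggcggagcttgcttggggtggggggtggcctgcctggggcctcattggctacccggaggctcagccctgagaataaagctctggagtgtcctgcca
A1bg, chr15:60921267-60921416, minus strand: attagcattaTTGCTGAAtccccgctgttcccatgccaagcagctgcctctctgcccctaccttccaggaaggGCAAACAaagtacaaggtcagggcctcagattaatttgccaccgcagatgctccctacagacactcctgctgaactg
Capitals mark matches, on either strand, to an HNF1 half-site (GTTAAT), a FOXA motif (TGTTTNC), an HNF4 half-site (CAAAGTC), a C/EBP motif (TTGCNNAA) and a TATA box (TATAAA), of which the first 4 are bound by factors known from liver promoters. In windows from 250 bases before to 50 after the start, Serpina1c held 1 HNF1 half-site and 1 FOXA match, Selenop 2 FOXA matches, 1 of them before the bases printed, A1bg 1 FOXA and 1 C/EBP match, and Sds none. Of the listed genes, Ccdc152 held 1 HNF4 and 1 C/EBP match and Plbd2 1 FOXA match, and B430119L08Rik and 4930402D18Rik held none. Of 32851 RefSeq promoters of the same length (GRCm38.p6), 7.10% held the HNF1 half-site, 20.5% the FOXA motif, 4.44% the HNF4 half-site, 10.8% the C/EBP motif and 13.6% the TATA box. A match is a description of the letters and not evidence of binding.

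The starts of the listed genes differed from one another. No liver, kidney or lung set had a hotspot within 1 kb of the Ccdc152 start, and 1 B cell set, of B6x129, covered 89 bp. In liver the nearest hotspot lay 7221 to 8317 bp from that start. At 4930402D18Rik no hotspot lay over the start in any set, and within 1 kb of it liver sets covered 0 to 127 bp, lung sets 0 to 127 bp and B cell sets 0 to 140 bp (adjusted p = 0.507, exact permutation test). Within 2 kb its cover was higher in liver, at a mean of 460 bp against 142 bp in the other sets (adjusted p = 0.0214, exact permutation test). Neither start is covered by hotspots as those of Selenop and A1bg are, in the same tissue and the same sets. The Plbd2 start was open in all 20 sets, with 325 to 1059 bp in liver and 331 to 1013 bp elsewhere (adjusted p = 0.431, exact permutation test). How the open starts relate to the counts listed under the 4 names was not tested. B430119L08Rik was the exception, with 864 to 1148 bp in the 5 liver sets and none in the other 15 (adjusted p = 0.0120, exact permutation test). Its start lies inside the Serpina1c gene, 8990 bp from the Serpina1c start, and the hotspot over it was 97 bp wide in all 5 liver sets, with a -log10 false discovery rate of 3.84 to 16.2. It had the same ends in all 5, chr12:103895879-103895975. The hotspots rest on uniquely mapped reads. The part of the near-identical Serpina1 copies in hotspot ends and cover at this locus was not tested.

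**Figure D3:**
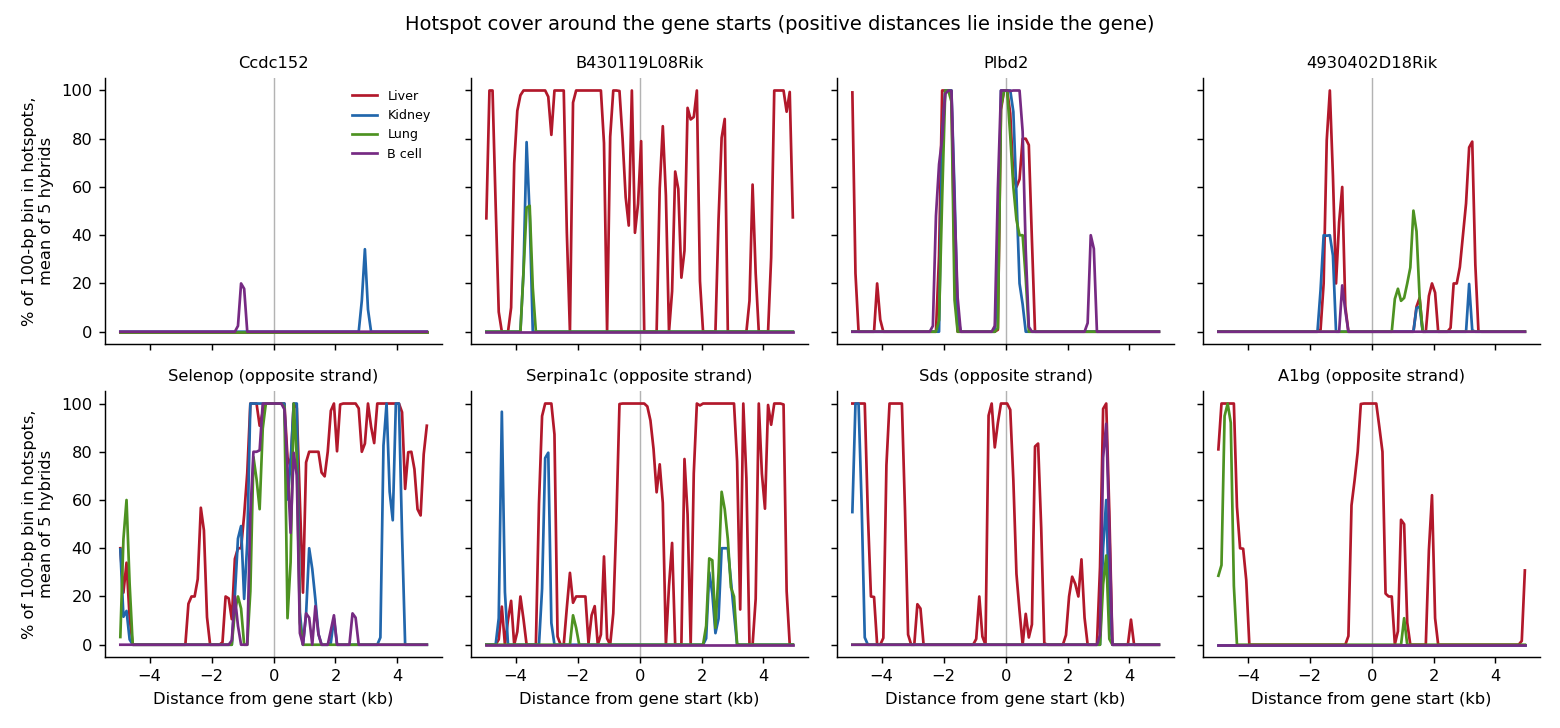
Percent of each 100-bp bin in hotspots (vertical axis, mean of the 5 hybrids) against distance from the gene start in kb (horizontal axis, positive inside the gene) for the 4 listed genes (upper row) and the opposite genes (lower row), 1 line per tissue. The liver line is at 100% over the starts of Selenop, Serpina1c, Sds and A1bg and at 0 over those of Ccdc152 and 4930402D18Rik, and all tissues are at 100% over the Selenop and Plbd2 starts.

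Over whole gene bodies, all 8 genes had more cover in liver. In each of the 8, all 5 liver sets exceeded all 15 others, which was so for 11.4% of gene bodies tested, and the adjusted p was 0.00629 for each (exact permutation test), where 25.0% of all gene bodies were called higher in liver. The genes of a pair share part of their bodies, so that the 8 are not 8 separate observations. Selenop was the most covered, with 93.0%, 97.7%, 38.5%, 88.7% and 87.0% of its length in hotspots in the B6x129, B6xC3H, B6xCAST, B6xPWK and B6xSPRET liver sets and at most 20.4% elsewhere. Ccdc152 had 10.1% to 17.2% in liver and at most 4.14% elsewhere. Serpina1c had 45.5% to 58.3% in liver and at most 8.78% elsewhere, and B430119L08Rik 18.1% to 44.8% in liver and no hotspot in the other 15 sets. Sds had 12.1% to 49.2% and Plbd2 14.96% to 28.5% in liver, against at most 5.79% and 9.23% elsewhere. A1bg had 9.81% to 23.4% in liver and at most 1.49% elsewhere, and 4930402D18Rik 4.72% to 8.23% and at most 2.70%. With the 75000 highest-scoring hotspots of each set the call was lost for B430119L08Rik (adjusted p = 0.167) and Plbd2 (adjusted p = 0.0611).

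**Figure D4:**
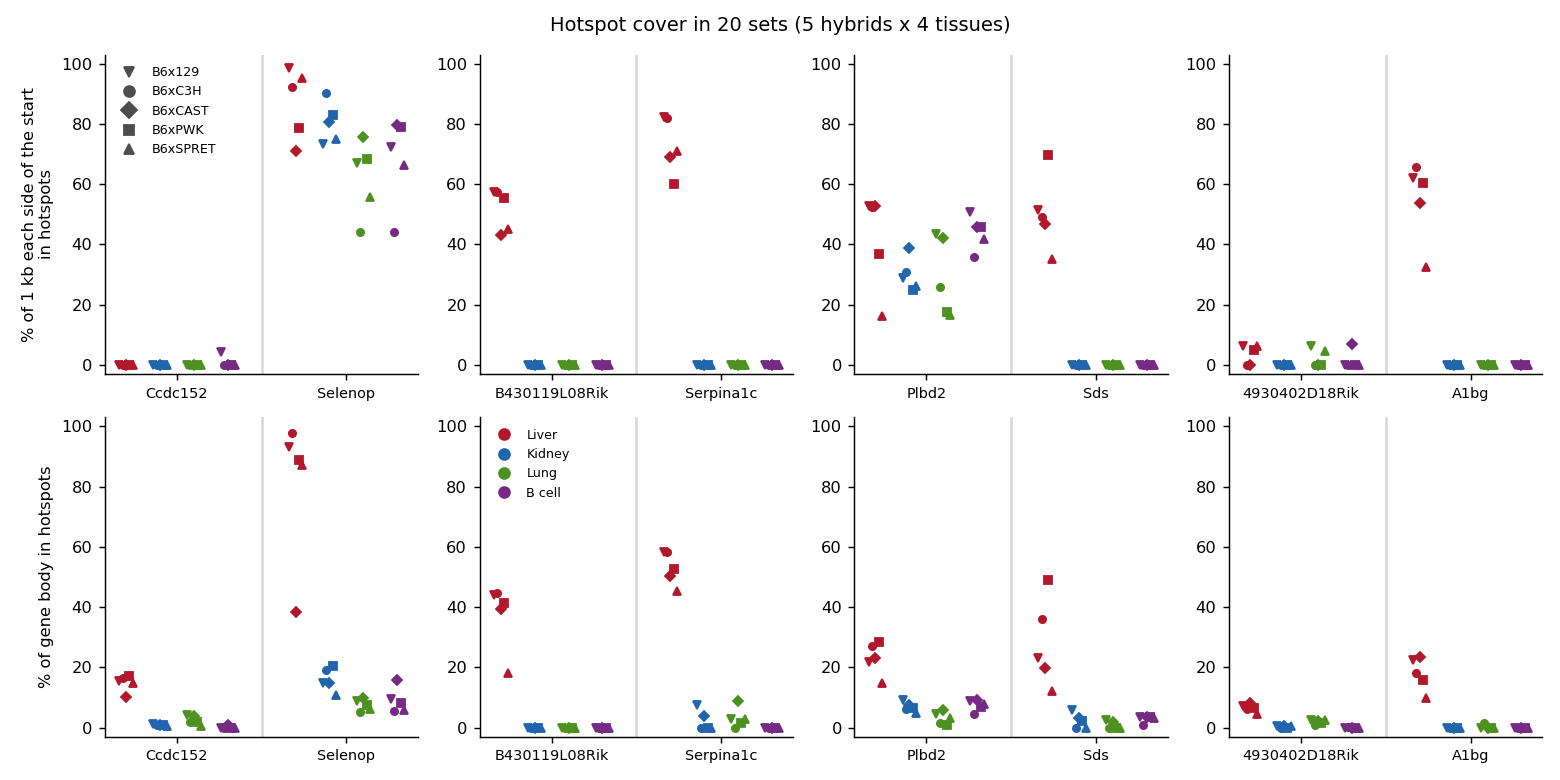
Percent of the bases within 1 kb of the gene start (upper row) and of the gene body (lower row) in hotspots for the 4 gene pairs, with 1 symbol per hotspot set, coloured by tissue and shaped by hybrid. Around the starts the 5 liver sets stand apart at B430119L08Rik, Serpina1c, Sds and A1bg, where the other 15 sets are at 0, and in the bodies they stand above all others in each of the 8 genes.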

How the data were processed

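RNA was sequenced by the authors from stranded total RNA libraries with spike-ins, and the deposited tables hold RSEM expected counts and TPM (a share of all transcripts, scaled by length) per gene. The submitters' processing notes name Trimmomatic, BWA, STAR and RSEM and the build mm10. The annotation and strand setting behind the tables are not given in the sources used here. DNase reads of all libraries of a hybrid and tissue were pooled by the authors, and the deposited hotspot sets (FDR 5%) give positions and the -log10 of the FDR, capped at 100.

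Genes were matched by Ensembl identifier without version. Of 77835 transcripts listed in the tables, 77733 were found in GENCODE vM21 and gave positions for 53660 genes. The opposite gene of each listed gene was the one with most shared exonic bases. The 4 genes, the lists and the tests were chosen with earlier results of these data known. Rounded expected counts were fitted over all genes with edgeR 4.0.16 (R 4.3.3, TMM, filterByExpr, quasi-likelihood test, Benjamini-Hochberg, threshold 0.05): 17 samples with tissue as factor, and 16 with tissue and hybrid. The B cell library labelled B6xCAST was left out of the latter because a list of samples in the study names another hybrid. SE was taken as the difference divided by the root of the F statistic. Alternatives were DESeq2 1.42.0, limma 3.58.1 on log2(TPM + 1), size factors (RLE) in edgeR, no filter, hybrid as a covariate and leaving out each library or, for hotspots, each hybrid, a stricter FDR, the highest-scoring hotspots, other windows and hotspot number. Limits for a count of 0 are 3 counts, set over the libraries of a tissue for folds, and cover counting error only. A tissue with fewer counts than 3 was also set to 3, and the fold is a limit only for a count of 0. Cover by hotspots was compared by exact permutation within hybrids. The scripts were tested on simulated data. Replicates of a group were compared by chi-square over genes, and no pair was alike within sampling noise. Named genes were the 4 genes, their opposite genes, the 3 genes most correlated with each, examples from the lists (up to 4, the highest in liver; genes with an opposite gene named after their values were seen) and the hotspots nearest to each start. Stem cell hotspot sets were not used here.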

Additional observations from a re-analysis of the deposited data

Results flagged for a closer look

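In 48 groups of 4 or 5 values (CPM or hotspot cover of the 8 genes by tissue), 4 held a value far from the rest by Dixon's ratio at the 95% level, where chance alone flags about 1 in 20 groups. Selenop in the B6xPWK kidney library was 9.69 CPM, the lowest of 4, from 5 counts against 8 to 11 in the other kidney libraries. Hotspots of the B6xCAST liver set covered 3750 bp of the Selenop gene against 8479 to 9517 bp in the other 4 liver sets. Hotspots of the B6xSPRET liver set covered 522 bp of the B430119L08Rik gene against 1136 to 1295 bp in the other liver sets. Hotspots of the B6xC3H B cell set covered 58 bp of the Sds gene, the lowest of 5, and that set held the fewest hotspots of the 20, 78387.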

How the results depend on the processing

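Of 1008 values recomputed under alternatives, 918 kept their direction and their side of the threshold or stayed near the reported value, and the causes of the other changes were not tested. No paired analysis was possible because the labels give no replicate numbers shared between groups, but hybrid was a covariate in 1 alternative of the tissue fits and the block in the hotspot tests. Ccdc152, the listed gene tested outside liver, was not called between kidney and lung with limma or with size factors. Between lung and B cells it kept its call in all 22 alternatives. Without the filter 1 of 4 was called in B6xSPRET against B6xPWK and 1 in B6xPWK against B6xC3H (0 to 1 each when 1 library was left out). Over all genes, no filter gave 3199 calls for liver against the rest (limma 3526, reported 1938), 2894 for kidney against lung (reported 1859), 5116 for kidney against B cells and 4973 for lung against B cells, 3476 of these higher in lung (reported 1317 of 2445). Genes called higher in kidney than in lung were 383 of 2144 by limma and 729 of 2013 by DESeq2, and in kidney than in B cells 1016 of 2828 by limma (reported 1460 of 2703). For B6xSPRET against B6xPWK, B6xSPRET against B6xC3H and B6xPWK against B6xC3H it gave 248, 212 and 191 and limma 60, 43 and 22 (reported 111, 111 and 58), of which 24, 39 and 19 were higher in the first hybrid (reported 62, 74 and 36), and leaving out 1 library gave 72 to 175, 66 to 161 and 36 to 76. The median liver difference of the 4 genes was 8.48 on the log2 scale with TPM plus 1 in place of CPM plus 1.

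Gene starts called higher or lower in liver numbered 902 by hotspot number, 2849 within 500 bp, 7411 within 2 kb and 3055 to 3720 without 1 hybrid (3055 without B6x129), and gene bodies 4916 by hotspot number. Uncalled differences turned sign. Plbd2 in B6xSPRET against B6xPWK was 0.043 by DESeq2, 0.042 by limma and -0.52 to 2.04 without 1 library (2.04 without the B6xPWK liver library), and against B6xC3H -0.10 to 0.72. 4930402D18Rik in B6xSPRET against B6xC3H was -1.66 (without the first B6xSPRET liver library) to 2.51. In B6xPWK against B6xC3H, Ccdc152 was -0.53 to 0.57, B430119L08Rik -0.46 to 1.21 and Plbd2 -1.71 to 0.66. The cover of the Plbd2 start within 500 bp differed by -53.1 bp in liver from the other sets. Totals of 283725 to 322257 counts per liver library limit what can be said of Sds and A1bg.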
